A study of Mus musculus with 7 samples.

Results

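The translation initiation factors were described in mouse CD8+ T cells kept for 48 hours with LME-sEVs or HCME-sEVs. Members were the genes whose symbol starts with Eif and a digit from 1 to 6, without the pseudogenes whose symbol ends in -ps, that had a mean of at least 5 counts over the 7 libraries. The table lists 68 such symbols, of which 10 were pseudogenes with a mean of at most 1.86 counts. Of the 58 that were left, 52 reached the minimum, out of 12623 genes that did so among the 55367 of the table. LME-sEVs are small extracellular vesicles (sEV) of the leukemic microenvironment, purified from spleens of Eμ-TCL1 mice, in which the TCL1 oncogene drives a leukemia of B cells under an immunoglobulin heavy chain enhancer. HCME-sEVs were purified in the same way from pooled spleens of healthy C57BL/6 mice. The treated cells of both groups were CD8+ T cells sorted from spleens of Foxp3 YFP/cre mice, a strain in which the promoter of the regulatory T cell gene Foxp3 drives a fluorescent protein and Cre. All were labelled healthy. The labels give no age, and mice were 8 to 10 weeks old by the general methods. The labels give 100 μg/ml of sEVs for both groups, whereas the methods of the study describe physiologic amounts, and the general culture of CD8+ T cells there holds anti-CD3, anti-CD28, and IL2. By the labels 4 libraries had received HCME-sEVs and 3 had received LME-sEVs, whereas a figure legend of the study gives the sizes the other way round. The comparison asks how LME-sEVs change gene expression of CD8+ T cells relative to HCME-sEVs.

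Initiation brings a ribosome to the start codon of an mRNA. eIF2 carries the initiator tRNA to the small ribosomal subunit, where eIF1, eIF1A, eIF3, and eIF5 help it to scan for the start codon, the eIF4 factors bind the cap of the mRNA and unwind it, and eIF5B joins the large subunit. Phosphorylation of eIF2 by the Eif2ak kinases blocks its recharging by eIF2B, which lowers initiation on most mRNA and favours that of Atf4, and T cells are known to raise translation when they are activated.

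Library totals lay between 3689831 and 5030522 counts of unique molecules, so that 3 counts, the smallest level taken as shown, were 0.582 to 0.807 CPM (counts scaled to the TMM-normalized library size). The spread between 2 libraries of a group was measured by chi-square per degree of freedom, which counting error alone keeps near 1. It was 2.12 to 6.13 for HCME-sEV pairs and 2.52 to 2.62 for LME-sEV pairs, so the spread exceeded counting error. Pairs with HCME-sEV 1 had the highest values, from 4.18 to 6.13. The label of CD8+ T cells was met: all 7 of their markers (Cd8a, Cd8b1, Cd3d, Cd3e, Cd3g, Trac, and Cd2) were tested. They had a summed level of 1799 to 2017 CPM in the HCME-sEV libraries and 2080 to 2396 CPM in the LME-sEV libraries. Cd3e and Cd3g were called higher. Summed levels of B cell markers were 226 to 268 CPM with HCME-sEVs and 304 to 331 CPM with LME-sEVs. Nearly all of that was Ighm, which was called higher, while Cd79a, Pax5, and Blk were below the minimum. Of the 3 tested B cell markers, 1 was estimated lower. Markers of basophils, mast cells, and eosinophils summed to 8.67 to 32.7 CPM against 23.3 to 43.1 CPM, with Prg2 and Mcpt8 called higher. Of the 5 tested, 1 was estimated lower: Cpa3 went from 9.18 to 7.67 CPM on average (-0.26, FDR = 0.721). Those of erythroid cells and platelets summed to 71.8 to 175 CPM against 150.3 to 197 CPM, with Ppbp, Pf4, and Hba-a1 called higher. Of the 6 tested, 1 was estimated below 0, Hbb-bs at -0.01. Myeloid markers were at 2.03 to 4.82 CPM against 5.82 to 7.42 CPM. CD4 T cell and NK cell markers summed to less than 2 CPM in every library, and none was tested. Mitochondrial genes took 6.48% to 7.67% of the HCME-sEV counts and 6.44% to 6.54% of the LME-sEV counts. The part of these differences in the results on initiation factors was not tested.

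Initiation factor transcripts were mostly at lower levels after LME-sEVs, by small amounts. With a false discovery rate (FDR) under 0.05 in edgeR's quasi-likelihood test, 11 of the 52 members (21.2%) were called, against 8.96% of all tested genes. Of these, 10 fell (Eif1a, Eif1ad, Eif2s1, Eif2s2, Eif2b4, Eif2ak2, Eif4e2, Eif5, Eif5a, and Eif6), a direction called in 5.21% of all genes, and 1 rose (Eif2ak3), a direction called in 3.75%. The estimate was below 0 for 39 members, against 48.5% of all genes, and the median log2 fold change of LME-sEVs over HCME-sEVs was -0.19, against 0.01 over all genes. All LME-sEV libraries lay below all HCME-sEV libraries for 23 members, an arrangement found in 10.8% of all genes, and above them for 2 members (Eif2ak3 and Eif3f), found in 9.49%. The 41 members that were not called had 29 estimates below 0, with a median of -0.12. With library size only in place of TMM, 4 fell and 2 rose, where 8.55% of all genes were called. The number called also depended on single libraries. Without HCME-sEV 1, 2, 3, or 4 in turn, 7, 4, 12, and 8 members were called, against 7.36%, 5.67%, 10.2%, and 7.26% of all genes. Without LME-sEV 1, 2, or 3 in turn, 6, 2, and 3 were called, against 6.67%, 3.11%, and 3.65%. No called member changed sign in any of these fits. No member passed the study's bar for differentially expressed genes (DEG), which adds a log2 fold change beyond 1 and was met by 1.28% of all genes. With a two-sided exact permutation test on single members, 5 of the called members had p = 0.0286, the smallest that 4 against 3 libraries allow. The p was 0.0571 for 5 more and 0.0857 for Eif2ak2. Exons of 9 members overlap those of another gene on the same strand and exons of 14 do so on the opposite strand. How reads in such overlaps were counted is not given in the sources used here, so these levels are uncertain to that extent. In RNA from a whole culture, less transcript per cell and fewer cells that carry it cannot be told apart.

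**Figure D1:**
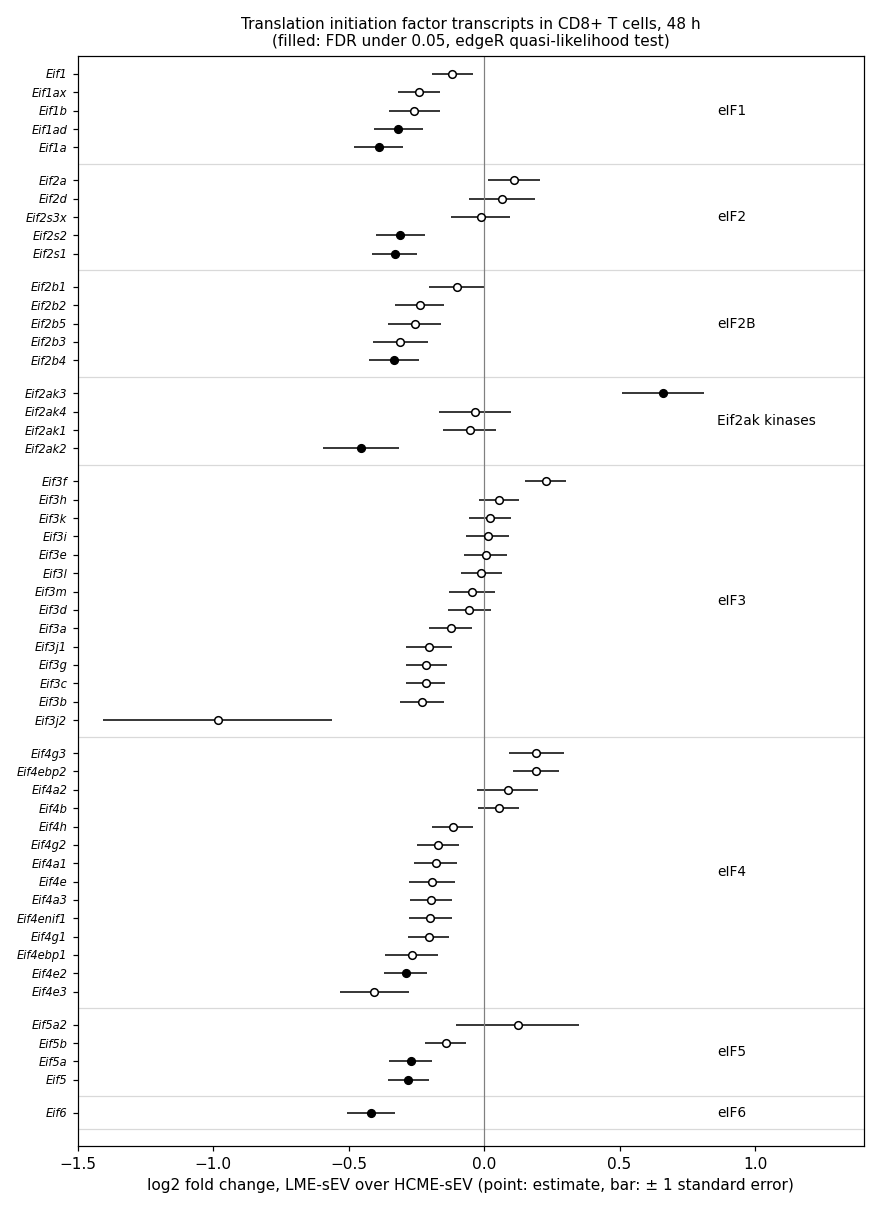
Log2 fold change of each tested initiation factor, LME-sEV (n = 3) over HCME-sEV (n = 4), by factor group. The x axis is the log2 fold change, points are estimates, bars 1 standard error, and filled points had an FDR under 0.05 in edgeR's quasi-likelihood test: 10 of the 11 filled points lie left of 0, and none belongs to eIF3.

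The sums of the factor groups shifted by different amounts, and the differences between groups were not tested. Summed over its members, eIF1 had 1114 ± 72.5 CPM in HCME-sEV libraries (SD, n = 4) and 948 ± 21.5 CPM in LME-sEV libraries (SD, n = 3). The eIF2 sum was 2762 ± 302 against 2278 ± 85.1 CPM, of which Eif2s2 made up the most. Its HCME-sEV 1 value was 3210 CPM, and the other HCME-sEV libraries were at 2562 to 2673 CPM. The median log2 fold change of the eIF2 members was -0.01, with 3 estimates below 0 and 2 above. For eIF2B the sum was 437 ± 24.7 against 367 ± 18.1 CPM, and for eIF5 1981 ± 135 against 1693 ± 39.3 CPM. In these 4 groups, and in eIF3, eIF4, and eIF6, the sums of the LME-sEV libraries lay below those of all HCME-sEV libraries. For eIF3 the gap was small, from 4981 CPM in LME-sEV 1 to 4989 CPM in HCME-sEV 3. The eIF4 sum went from 3891 ± 143 to 3578 ± 119 CPM, with LME-sEV 3 at 3672 CPM close to HCME-sEV 3 at 3699 CPM. The eIF3 sum went from 5147 ± 139 to 4914 ± 91.2 CPM, and the Eif2ak kinases had the same sum, 144 ± 5.85 and 144 ± 11.9 CPM, from members that moved in opposite directions. Of all counts, the initiation factors together took 1.470% to 1.586% in the HCME-sEV libraries and 1.404% to 1.438% in the LME-sEV libraries, so the groups did not overlap.

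**Figure D2:**
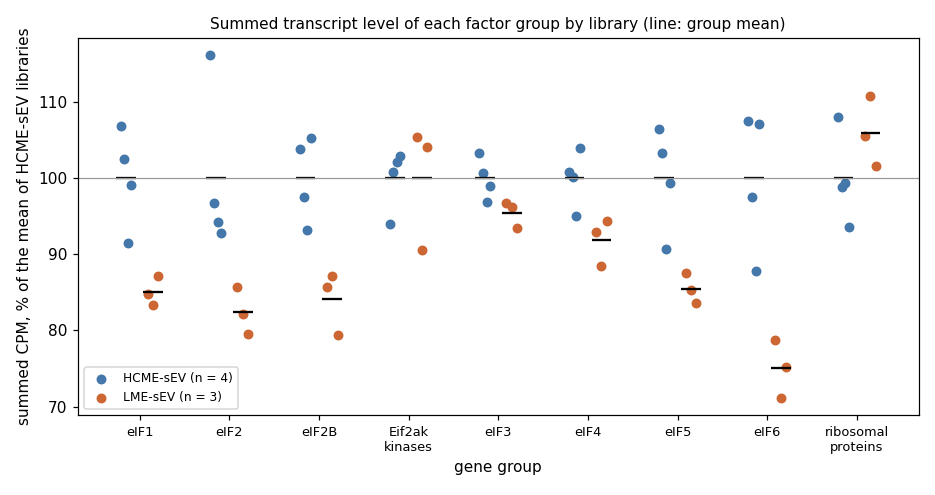
Summed CPM of each factor group in every library, as percent of the mean of the HCME-sEV libraries on the y axis; each point is 1 library (blue, HCME-sEV, n = 4; orange, LME-sEV, n = 3) and each line a group mean. The LME-sEV points lie below the HCME-sEV points for eIF1, eIF2, eIF2B, eIF3, eIF4, eIF5, and eIF6. They overlap with them for the Eif2ak kinases and for the ribosomal proteins. For the ribosomal proteins the LME-sEV mean is 6.01% higher, but HCME-sEV 1 lies above LME-sEV 1 and LME-sEV 3.

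The eIF1 group holds the genes of eIF1 and eIF1A, factors of the scanning complex, and Eif1ad. Estimates were below 0 for all 5 members (median -0.26), against 48.5% of all genes. Of the 5, 2 fell (40% called), against 5.21% of all tested genes called lower. Eif1a, which encodes eIF1A, the factor that with eIF1 keeps the scanning ribosome open, had 237, 230.4, 191, and 194 CPM in HCME-sEV libraries 1 to 4 and 159, 158, and 171 CPM in LME-sEV libraries 1 to 3. The LME-sEV libraries were all lower and lay close together, and the transcript fell by 23.7% (log2 fold change -0.39 ± 0.09 (SE), FDR = 0.00915). Eif1ad, which encodes a protein with a domain like that of eIF1A, had 81.2, 91.2, 79.8, and 88.5 CPM in HCME-sEV libraries 1 to 4 and 64.3, 69.4, and 70.96 CPM in LME-sEV libraries 1 to 3. Again the groups did not overlap, and it fell by 19.7% (-0.32 ± 0.09, FDR = 0.0320). Eif1ax, the X-linked gene of eIF1A, was estimated at -0.24 (FDR = 0.0594), just outside the threshold, and Eif1b, a close relative of Eif1, at -0.26 (FDR = 0.0992). Eif1, the guard of start codon choice, had 381, 363, 347, and 373 CPM in HCME-sEV libraries 1 to 4 and 333, 313, and 366 CPM in LME-sEV libraries 1 to 3, which overlapped, with an estimate of -0.12 (FDR = 0.390). The call of Eif1a was lost without LME-sEV 2 (FDR = 0.0655). That of Eif1ad was lost in 5 of the 7 fits that left out a library (HCME-sEV 2, HCME-sEV 4, or any LME-sEV library; FDR 0.0724 to 0.135), with library size only, and without a filter (FDR 0.0558 to 0.0732).

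Of the 3 subunits of eIF2, the alpha and beta subunits fell and the gamma subunit did not pass the test. Of the 5 tested members of the eIF2 group 40% were called, against 8.96% of all tested genes. Eif2s1, the alpha subunit that carries the phosphorylation site, had 233, 232, 197, and 222 CPM in HCME-sEV libraries 1 to 4 and 165, 191, and 171 CPM in LME-sEV libraries 1 to 3, with no overlap, and fell by 20.5% (-0.33 ± 0.08, FDR = 0.0170). Eif2s2, the beta subunit, had 2771, 2190.2, 2166, and 2122 CPM in HCME-sEV libraries 1 to 4 and 1992, 1838, and 1766 CPM in LME-sEV libraries 1 to 3 and fell by 19.3% (-0.31 ± 0.09, FDR = 0.0357). HCME-sEV 1 stood well above the other HCME-sEV libraries here, and without it the estimate was -0.21 (FDR = 0.0713). Eif2s3x, the X-linked gamma subunit, had 68.7, 94.02, 87.8, and 89.4 CPM in HCME-sEV libraries 1 to 4 and 73.99, 82.03, and 95.4 CPM in LME-sEV libraries 1 to 3. The ranges overlapped, with a log2 fold change of -0.01 (95% interval -0.24 to 0.22, FDR = 0.964). Its Y-linked copy Eif2s3y had 0 counts in every library, as other Y-linked genes had at most 2 (Ddx3y, Kdm5d, and Uty), while the X-linked Xist had 2034 to 3404. Eif2a and Eif2d, which deliver tRNA to the ribosome outside the eIF2 complex, were estimated at 0.11 (FDR = 0.538) and 0.06 (FDR = 0.813). Leaving out 1 library ended the call of Eif2s1 in 3 of 7 fits (HCME-sEV 2, LME-sEV 1, or LME-sEV 3; FDR 0.0621 to 0.0969). The call of Eif2s2 ended in 4 (HCME-sEV 1, HCME-sEV 2, LME-sEV 2, or LME-sEV 3; FDR 0.0633 to 0.175). It was also at FDR = 0.0520 with upper quartile scaling and 0.0517 with library size only.

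The 5 subunits of eIF2B, the complex that recharges eIF2 with GTP, were all estimated below 0 (median -0.26), against 48.5% of all genes. For 4 of them all LME-sEV libraries lay below all HCME-sEV libraries, an arrangement found in 10.8% of all genes. Of the 5, 20% were called, against 8.96% of all tested genes. Eif2b4, the delta subunit, had 122, 99.1, 109, and 125 CPM in HCME-sEV libraries 1 to 4 and 87.7, 89.9, and 93.8 CPM in LME-sEV libraries 1 to 3 and was the only one called; it fell by 20.5% (-0.33 ± 0.09, FDR = 0.0281). Eif2b3, the gamma subunit, was next at -0.31 ± 0.10 (FDR = 0.0593). Eif2b5, the catalytic epsilon subunit, had 102, 99.3, 91.8, and 118 CPM in HCME-sEV libraries 1 to 4 and 91.2, 90.8, and 76.8 CPM in LME-sEV libraries 1 to 3, with an estimate of -0.26 ± 0.10 (FDR = 0.113). LME-sEV 3 was the low library there and HCME-sEV 4 the high one. Eif2b2 was estimated at -0.24 (FDR = 0.112) and Eif2b1 at -0.10 (FDR = 0.626). The call of Eif2b4 was lost in 5 of 7 fits that left out a library (HCME-sEV 1, HCME-sEV 4, or any LME-sEV library; FDR 0.0561 to 0.114), and with library size only (FDR = 0.0622). Exons of Eif2b4 overlap those of Snx17 on the opposite strand, and those of Eif1ad overlap Banf1, and whether counting used the strand was not given in the sources used here.

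Of the 4 kinases that phosphorylate eIF2, 1 rose and 1 fell, where 3.75% of all tested genes were called higher and 5.21% lower. Eif2ak3, which encodes PERK, the sensor of unfolded proteins in the endoplasmic reticulum, had 14.7, 21.03, 24.5, and 17.5 CPM in HCME-sEV libraries 1 to 4 and 27.98, 29.7, and 33.5 CPM in LME-sEV libraries 1 to 3. Every LME-sEV library was above every HCME-sEV library, and the transcript rose by 57.9% (0.66 ± 0.15, FDR = 0.00929). Eif2ak2, which encodes PKR, the sensor of double-stranded RNA, had 24.8, 30.4, 32.3, and 32.4 CPM in HCME-sEV libraries 1 to 4 and 25.8, 18.4, and 21.7 CPM in LME-sEV libraries 1 to 3 and fell by 27.0% (-0.45 ± 0.14, FDR = 0.0479). Its groups overlapped, since HCME-sEV 1 lay below LME-sEV 1. Eif2ak1, the kinase HRI that senses lack of heme, had 73.96, 71.2, 62.1, and 69.6 CPM in HCME-sEV libraries 1 to 4 and 72.1, 59.6, and 68.8 CPM in LME-sEV libraries 1 to 3. Eif2ak4, the kinase GCN2 that senses uncharged tRNA, had 22.2, 22.8, 28.3, and 29.1 CPM in HCME-sEV libraries 1 to 4 and 26.1, 22.9, and 25.98 CPM in LME-sEV libraries 1 to 3. Both overlapped, with estimates of -0.05 (95% interval -0.26 to 0.15, FDR = 0.808) and -0.03 (-0.31 to 0.25, FDR = 0.919). Eif2ak3 lies on chromosome 6 at 70844515 to 70905245 of GRCm38, plus strand. Its call was lost without LME-sEV 3 (0.58, FDR = 0.0750). That of Eif2ak2 was lost in 5 of 7 fits without a library (HCME-sEV 2, HCME-sEV 3, HCME-sEV 4, LME-sEV 2, or LME-sEV 3; FDR 0.0806 to 0.249) and in 5 of 8 other models (FDR 0.0508 to 0.0896).

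**Figure D3:**
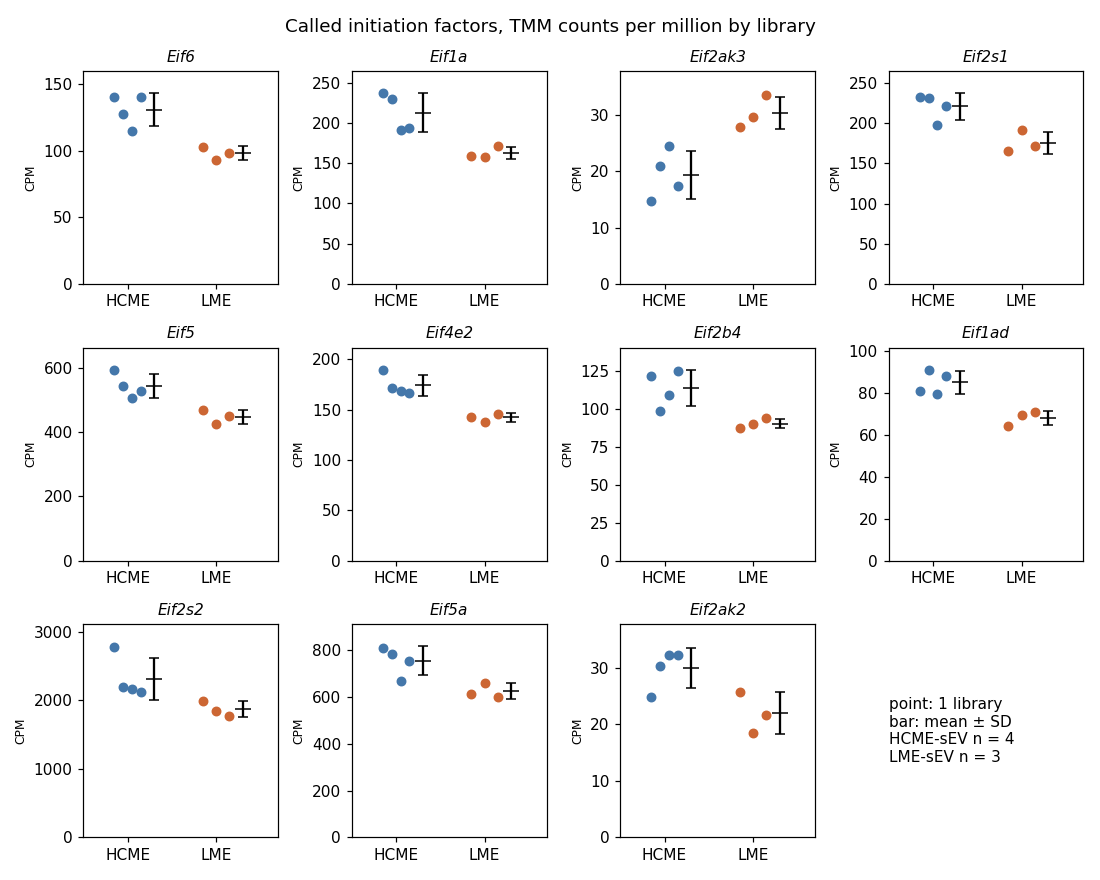
TMM-normalized CPM of the 11 called initiation factors in every library; each point is 1 library, the bar beside it the mean ± SD (HCME-sEV, n = 4; LME-sEV, n = 3), and each y axis starts at 0. Only Eif2ak3 is higher with LME-sEVs, and of the 11 only Eif2ak2 has overlapping groups.

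Genes downstream of phosphorylated eIF2 were followed through a list of 14 genes of the ATF4 pathway, all tested. Of these 5 fell and none rose (35.7% called), with a median of -0.40. Over all tested genes 8.96% were called, 5.21% as lower. Atf4, the transcription factor whose translation increases when eIF2 is phosphorylated, had 627, 546, 485, and 571 CPM in HCME-sEV libraries 1 to 4 and 462, 386, and 378 CPM in LME-sEV libraries 1 to 3, with no overlap, and fell by 26.7% (-0.45 ± 0.09, FDR = 0.00430). Atf3, Atf5, and Trib3, which are targets of this pathway, fell by 49.9% (FDR = 0.00174), 51.4% (FDR = 0.00723), and 29.1% (FDR = 0.0268). Nupr1 went from 3.05 ± 0.69 to 1.17 ± 0.42 CPM (FDR = 0.0468), a level of few counts. The list was not uniform, with 10 estimates below 0 and 4 above. All LME-sEV libraries lay below all HCME-sEV libraries for 6 genes and above them for 2, arrangements found in 10.8% and 9.49% of all genes. Asns, the asparagine synthetase, named here after its values were seen, was estimated higher (0.27 ± 0.09, FDR = 0.0520, no overlap). It was called higher with upper quartile scaling (FDR = 0.0405), library size only (FDR = 0.0266), filterByExpr (FDR = 0.0433), and without HCME-sEV 3 (FDR = 0.0314). Of the phosphatase subunits that remove the phosphate from eIF2, Ppp1r15a was estimated at -0.35 ± 0.21 (FDR = 0.341). Atf4 and Atf3 stayed called in every fit without 1 library, and Atf5 was lost without LME-sEV 2 (FDR = 0.0602). Trib3 was lost in 4 of 7 fits (HCME-sEV 1, HCME-sEV 4, LME-sEV 2, or LME-sEV 3; FDR 0.0528 to 0.138), and with DESeq2 (FDR = 0.0681). Nupr1 was lost in all 7 (FDR 0.0524 to 0.215) and in 5 of the 7 other models that gave it an adjusted p, with FDR from 0.0523 to 0.0691; DESeq2 gave none. These are transcript levels, and phosphorylation of eIF2 was not measured here.

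eIF3 is the scaffold that holds the scanning complex together. None of its 14 tested members was called with edgeR's quasi-likelihood test, against 8.96% of all tested genes, and the estimates split by subunit. Of these 6 had an unadjusted p under 0.05 (Eif3b, Eif3c, Eif3f, Eif3g, Eif3j1, and Eif3j2), DESeq2 called 1 (Eif3c), limma-voom called 0, and the fit with the replicate number as a block called 2 (Eif3f, FDR = 0.0455, and Eif3g, FDR = 0.0453). Eif3a, the largest subunit, had 990.2, 1015, 932, and 1030.2 CPM in HCME-sEV libraries 1 to 4 and 977, 803, and 951 CPM in LME-sEV libraries 1 to 3, an overlap, with -0.12 ± 0.08 (FDR = 0.378). Eif3b, the core subunit that binds RNA, had 132, 151, 133, and 150.4 CPM in HCME-sEV libraries 1 to 4 and 120.3, 119, and 123 CPM in LME-sEV libraries 1 to 3, without overlap, and an estimate of -0.23 ± 0.08 (FDR = 0.0928). Eif3c at -0.22 (FDR = 0.0693) and Eif3g at -0.21 (FDR = 0.0868) also had all LME-sEV libraries below all HCME-sEV libraries, and Eif3j1, the loosely bound subunit, was at -0.20 (FDR = 0.155). Subunits d, e, h, i, k, l, and m had estimates from -0.06 to 0.05 with FDR of at least 0.729. Eif3f, a subunit with an MPN domain, was the only one with LME-sEV libraries above all others: 235, 242, 256, and 249 CPM in HCME-sEV libraries 1 to 4 and 269, 309, and 283 CPM in LME-sEV libraries 1 to 3 (0.23 ± 0.08, FDR = 0.0666). It was called with upper quartile scaling (FDR = 0.0454) and with library size only (FDR = 0.0316). Eif3j2, the other gene of the j subunit, went from 3.05 ± 0.33 to 1.59 ± 0.95 CPM with an FDR of 0.164, at a level near the count of 3 in LME-sEV libraries 2 and 3.

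In eIF4, 1 of 14 tested members fell (7.14% called), near the share of all tested genes, 8.96% called and 5.21% called lower. The cap-binding complex itself was estimated lower without passing the test. Eif4e, the cap-binding protein, had 266, 227, 205.7, and 226 CPM in HCME-sEV libraries 1 to 4 and 204, 198, and 205.5 CPM in LME-sEV libraries 1 to 3 (-0.19 ± 0.09, FDR = 0.182). Eif4g1, the scaffold, had 684, 668, 625, and 723 CPM in HCME-sEV libraries 1 to 4 and 616, 559.8, and 582 CPM in LME-sEV libraries 1 to 3 (-0.20 ± 0.08, FDR = 0.0964). Eif4a1, the RNA helicase, had 271, 240.0, 240.3, and 239 CPM in HCME-sEV libraries 1 to 4 and 218, 204, and 233 CPM in LME-sEV libraries 1 to 3 (-0.18 ± 0.08, FDR = 0.177). In none of the 3 did the groups overlap, and LME-sEV libraries all lay lower, an arrangement found in 10.8% of all genes. For Eif4e the gap was small, from 205.5 CPM in LME-sEV 3 to 205.7 CPM in HCME-sEV 3. A copy of the 3′ end of Eif4e, Gm7327, had 6 counts in all, and that of Eif5a, Eif5al3-ps, had 0. The called member was Eif4e2, a relative of eIF4E that binds the cap without eIF4G and represses translation, with 189.8, 172, 168, and 166 CPM in HCME-sEV libraries 1 to 4 and 143, 138, and 146 CPM in LME-sEV libraries 1 to 3. It fell by 18.2% (-0.29 ± 0.08, FDR = 0.0256). This call was lost in 5 of 7 fits without a library (HCME-sEV 1, HCME-sEV 2, or any LME-sEV library; FDR 0.0601 to 0.127), and with library size only (FDR = 0.0544). Eif4e3, the third cap-binding relative, was just outside at -0.41 ± 0.13 (FDR = 0.0509), with LME-sEV 1 at 29.3 CPM as its lowest library and LME-sEV 3 at 47.1 CPM within the HCME-sEV range. It was called in 4 of 8 other models (DESeq2's size factors, no filter, limma-voom, and the replicate block; FDR = 0.0147 with the block) and without HCME-sEV 1 or LME-sEV 3. Its estimate was -0.26 without LME-sEV 1 (FDR = 0.246) and -0.60 without LME-sEV 3 (FDR = 0.0145).

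The inhibitors of eIF4E, which mTOR releases by phosphorylation, did not pass the test either. Eif4ebp1 had 91.6, 85.4, 78.7, and 91.5 CPM in HCME-sEV libraries 1 to 4 and 78.6, 62.03, and 76.00 CPM in LME-sEV libraries 1 to 3, without overlap, and -0.27 ± 0.10 (FDR = 0.1002). Eif4ebp2 had 237, 268, 258, and 306 CPM in HCME-sEV libraries 1 to 4 and 303, 294, and 319.7 CPM in LME-sEV libraries 1 to 3, with 1 HCME-sEV library inside the LME-sEV range, and 0.19 ± 0.08 (FDR = 0.175). Eif4ebp3 had 0 counts, as did Eif4a3l1, Eif4e1b, and Eif2c5, an older symbol of an Argonaute gene, while Eif4a3l2 had 1 count in all. Eif4g2, a scaffold that works without the cap-binding protein, had 943, 938, 862, and 1011 CPM in HCME-sEV libraries 1 to 4 and 888, 774, and 837 CPM in LME-sEV libraries 1 to 3 (-0.17 ± 0.08, FDR = 0.185). Mtor was at 0.01 ± 0.11 (FDR = 0.968). The helicase inhibitor Pdcd4, at 0.16 ± 0.08 (FDR = 0.204), and the eIF4E kinases Mknk1 (FDR = 0.731) and Mknk2 (FDR = 0.324) were not called. They belong to a list of 28 tested regulators of initiation, with a median of -0.01. Of these 1 fell and none rose (3.57% called, against 8.96% of all tested genes).

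That regulator was Dohh, the deoxyhypusine hydroxylase. It completes hypusine, the modified amino acid that eIF5A needs to keep the ribosome moving. Of the 4 tested eIF5 members 2 fell (50% called), against 5.21% of all tested genes called lower. Eif5a had 809.7, 783, 668, and 751 CPM in HCME-sEV libraries 1 to 4 and 613, 660.5, and 599 CPM in LME-sEV libraries 1 to 3, with no overlap, and fell by 17.1% (-0.27 ± 0.08, FDR = 0.0358). Dohh had 66.7, 59.8, 57.3, and 57.3 CPM in HCME-sEV libraries 1 to 4 and 34.2, 39.6, and 41.1 CPM in LME-sEV libraries 1 to 3 and fell by 36.2% (-0.65 ± 0.10, FDR = 0.000708), with no overlap, and was called in every fit without 1 library; its exons overlap Gm48551 on the same strand. Dhps, the synthase of the step before, was estimated at -0.26 ± 0.12 (FDR = 0.207). Eif5, which triggers GTP hydrolysis by eIF2 at the start codon, had 596, 545, 506, and 531 CPM in HCME-sEV libraries 1 to 4 and 469, 427, and 449.8 CPM in LME-sEV libraries 1 to 3 and fell by 17.7% (-0.28 ± 0.08, FDR = 0.0251); an exon of it overlaps the small RNA Snora28. Eif5b, which joins the subunits, had 695, 709.6, 611, and 682 CPM in HCME-sEV libraries 1 to 4 and 645, 592, and 597 CPM in LME-sEV libraries 1 to 3, an overlap of LME-sEV 1 with HCME-sEV 3, and -0.14 ± 0.08 (FDR = 0.272). Eif5a2 was at 0.12 ± 0.23 (FDR = 0.809). Leaving out 1 library ended the call of Eif5a in 6 of 7 fits (all but HCME-sEV 3; FDR 0.0631 to 0.172), as did other scalings (FDR = 0.0501 with upper quartile scaling and 0.0646 with library size only). That of Eif5 ended in 4 (HCME-sEV 1, HCME-sEV 2, LME-sEV 2, or LME-sEV 3; FDR 0.0508 to 0.144).

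Of the members that fell, Eif6 had the smallest FDR. It encodes a factor that helps to build the large ribosomal subunit and keeps it from joining the small one too early, and it had 141, 128, 115, and 140.1 CPM in HCME-sEV libraries 1 to 4 and 103, 93.04, and 98.5 CPM in LME-sEV libraries 1 to 3. The groups did not overlap, and it fell by 25.1% (-0.42 ± 0.09, 95% interval -0.60 to -0.23, FDR = 0.00619). The gene lies on chromosome 2 at 155819832 to 155826925 of GRCm38, minus strand, and exons of the non-coding gene Gm16098 overlap it on the other strand. The call was lost without LME-sEV 2 (-0.38, FDR = 0.0555).

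**Figure D4:**
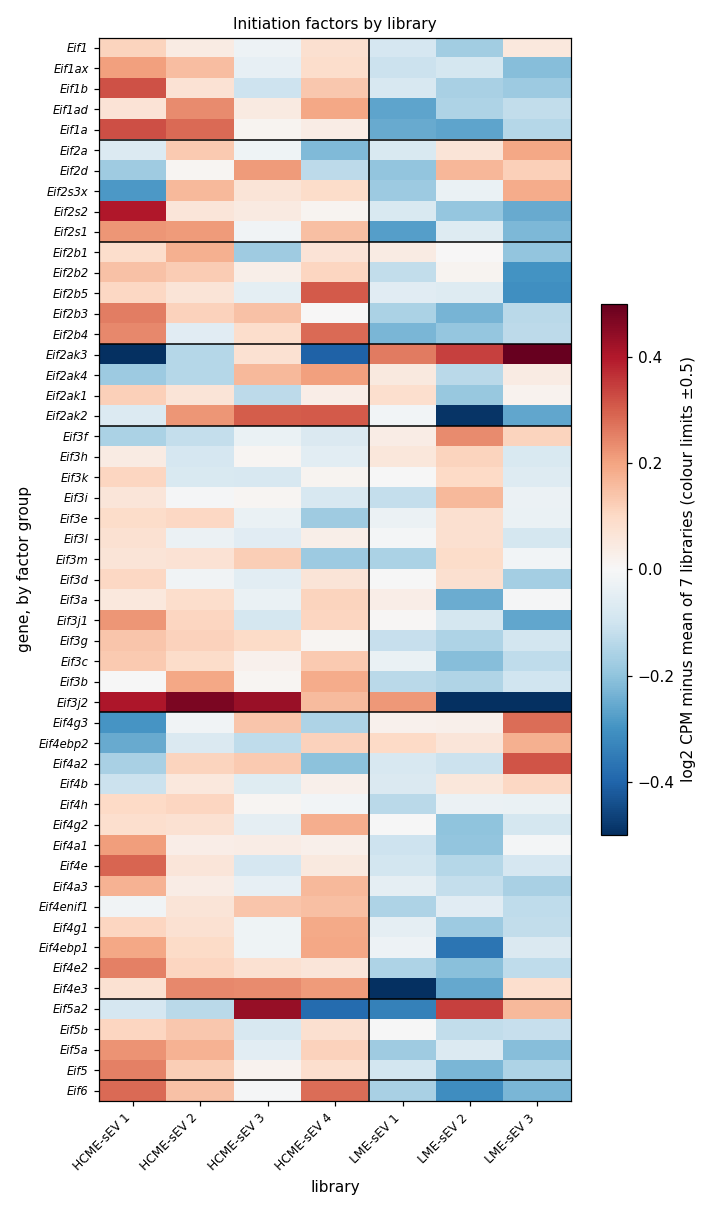
Log2 CPM of the 52 tested initiation factors (rows, by factor group) in the 7 libraries (columns), as the difference from the gene's mean over all libraries, with colours limited to ±0.5. Most rows of eIF1, eIF2B, eIF4, and eIF5 are red in the HCME-sEV columns and blue in the LME-sEV columns, HCME-sEV 3 is paler than the other HCME-sEV libraries, and many eIF3 rows show no such split.

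Other parts of the translation machinery were counted for comparison, where 8.96% of all tested genes were called, 5.21% lower and 3.75% higher. Of 24 tested partners of initiation factors on mRNA and ribosome, 3 fell and 1 rose (16.7% called, median -0.13). Bzw1, a mimic of eIF5, fell by 29.3% (-0.50 ± 0.07, FDR = 0.000401). Abcf1, which binds eIF2, fell by 22.7% (FDR = 0.00588), and Ddx3x, an RNA helicase, fell by 18.6% (FDR = 0.0230). Mif4gd, which links histone mRNA to eIF4G, rose by 26.4% (FDR = 0.0130). Among 20 tested elongation and termination factors 2 fell (10% called, median -0.10). They were Eef1e1, a part of the complex of tRNA synthetases (-0.47 ± 0.13, FDR = 0.0279), and Etf1, the release factor (-0.27 ± 0.08, FDR = 0.0333). Of 82 tested genes of cytosolic ribosomal proteins, 68 had estimates above 0, 5 rose and none fell (6.10% called, median 0.10). For 14 all LME-sEV libraries were above all HCME-sEV libraries, an arrangement found in 9.49% of all genes. The 5 that rose were Rpl28 (0.37, FDR = 0.00925), Rpl17 (0.35, FDR = 0.0160), Rps15 (0.27, FDR = 0.0307), Rpl29 (0.27, FDR = 0.0392), and Rpl3 (0.24, FDR = 0.0410). No test compared the lists with each other. Without 1 library, Bzw1 was called in every fit and Abcf1 lost its call without LME-sEV 3 (FDR = 0.0522). Mif4gd (FDR = 0.0882) and Rpl28 (FDR = 0.0686) lost it without LME-sEV 2, and Ddx3x without LME-sEV 2 or LME-sEV 3 (FDR 0.0779 to 0.160). Rpl17 lost its call in 3 fits (HCME-sEV 4, LME-sEV 2, or LME-sEV 3), Eef1e1 in 4 (HCME-sEV 2, HCME-sEV 3, LME-sEV 1, or LME-sEV 2), and Etf1, Rpl29, and Rpl3 in 5 each, which included every LME-sEV library. Rps15 lost it in 6 fits (all but HCME-sEV 1).

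**Figure D5:**
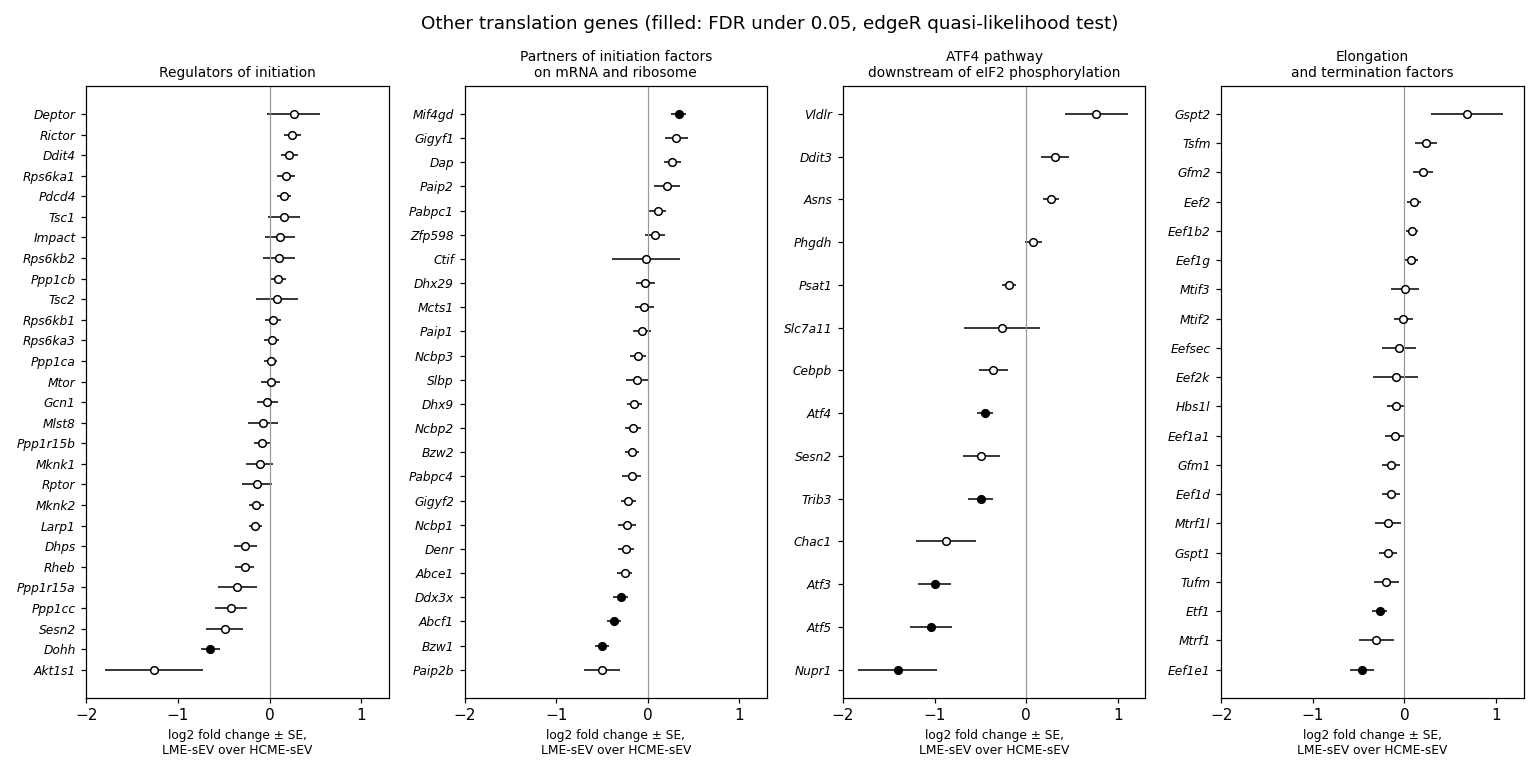
Log2 fold change (x axis, LME-sEV over HCME-sEV, ± 1 standard error) of the tested genes in 4 lists of other translation genes; filled points had an FDR under 0.05 in edgeR's quasi-likelihood test. The 5 filled points of the ATF4 pathway all lie below 0, and the regulators hold 1 filled point, Dohh.

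Promoters of the members were searched for 2 motifs with known ties to translation genes. RefSeq promoters of GRCm38.p6, from 250 bases before to 50 after each annotated start, were found for 42 of the 52 members and for 9247 tested genes. The E-box CACGTG, which Myc and related factors bind and which reads the same on both strands, was in 10 members (23.8%), 11.8% of the tested genes with an entry, and 6 of 60 ribosomal protein genes. It was in 1 of the 8 members that fell and had an entry (12.5%), Eif5a, and the 10 members with it had log2 fold changes from -0.27 to 0.23. The cap-binding genes Eif4e and Eif4g1 and the called member Eif5a are shown, with the E-box in capitals, on the strand of the gene.
Eif4e, chr3:138527192-138527221, plus strand: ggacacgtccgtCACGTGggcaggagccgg
Eif4g1, chr16:20672661-20672690, plus strand: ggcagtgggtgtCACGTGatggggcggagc
Eif5a, chr11:69921443-69921472, minus strand: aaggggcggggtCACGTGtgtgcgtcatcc
A run of at least 8 bases C or T on the strand of the gene, counted between 10 bases before and 15 after the start, where mRNA regulated by mTOR carry their pyrimidine tract, was in 8 members (19.0%). It was in 11.7% of the tested genes and 38.3% of the ribosomal protein genes. None of the 8 members that fell and had an entry held one. The members with a run had log2 fold changes from -0.26 to 0.23, and Eif3f, the eIF3 subunit with the highest estimate, and Eif2s3x, the eIF2 subunit that was not called, are shown with the run in capitals.
Eif3f, chr7:108934400-108934429, plus strand: tctgttctaggCTCTCTCTCTTTCTCggca
Eif2s3x, chrX:94212637-94212666, minus strand: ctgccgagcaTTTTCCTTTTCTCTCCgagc
These are matches of letters in a window and were not tested against the fold changes.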

How the data were processed

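CD8+ T cells of 7 libraries were profiled by QuantSeq 3′ mRNA-seq with unique molecular identifiers (UMI). The authors deposited whole-number counts per gene symbol without normalization or filter. They trimmed reads with cutadapt 2.10, aligned them to GRCm38 with STAR 2.5.3a, collapsed UMI with UMI-tools 1.0.0, and counted with featureCounts of Subread 2.0.0; the annotation release and strand setting are not given in the sources used here. Reads start at 3′ ends, so gene length does not enter a level.

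Groups came from sample titles. The labels do not say whether libraries came from separate animals or cultures, so p-values measure only the spread between these samples, which may be technical. Genes that averaged 5 counts or more per library were normalized by TMM and tested in edgeR 4.0.16 (glmQLFit, glmQLFTest; R 4.3.3), LME-sEV against HCME-sEV without covariates, with Benjamini-Hochberg adjustment over 12623 genes and an FDR threshold of 0.05. Standard errors were derived from the quasi-likelihood F. Log2 CPM used a prior count of 2. DESeq2 1.42.0, limma-voom (limma 3.58.1), other scalings and filters, the replicate number as a block, and leaving out each library were alternatives. The test steps were tested on simulated data, in which the changes were larger than those of the members that fell. How well changes as small as those are found was not tested. Copies of a 3′ end were looked for in GENCODE vM21 by blast 2.17.0, using the final 300 bases per transcript and a match of 200 bases or more at 95% identity.

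The members and lists were chosen with earlier results of these data known, and so were the motifs. Every member could be named; libraries were given singly for called members, the highest member of each group, and factors fixed by name, and of each other list at most 5 genes with the smallest FDR plus Mtor, Pdcd4, Mknk1, Mknk2, Atf4, Ppp1r15a, Dhps, and Dohh. Of the B cell markers, 1 is not reported here.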

Additional observations from a re-analysis of the deposited data

Results flagged for a closer look

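Within the 4 HCME-sEV libraries, the highest or lowest value was set against the others by Dixon's test, which divides its gap to the next value by the spread from lowest to highest, against its critical value for 4 samples. Groups of 3 libraries cannot be judged this way. Of 66 values tested, 2 passed, where chance alone flags about 1 in 20, or 3.3. Eif2s2, the beta subunit of eIF2, had a share of 0.895, with HCME-sEV 1 at 2771 CPM and the other HCME-sEV libraries at 2122 to 2190 CPM. Eif4a1, the helicase of the cap-binding complex, had a share of 0.947, with HCME-sEV 1 at 270.8 CPM and the others at 238.6 to 240.3 CPM. Both values were high in the same library.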

How the results depend on the processing

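In edgeR's quasi-likelihood test and 15 alternatives, no called initiation factor changed sign. Of the 11 calls, 5 (Eif6, Eif1a, Eif2ak3, Eif2s1, and Eif5) held in all 8 other models, and none in all 7 fits that left out a library. Conversely 8 uncalled members (Eif1ax, Eif1b, Eif2b3, Eif3c, Eif3f, Eif3g, Eif4e3, and Eif4ebp2) were called in at least 1 alternative, and 12 uncalled members changed sign. Members below 0 numbered 35 (library size only) to 41, and the median of all genes moved to at most 0.06. Across the other models 6 to 16 members were called, where 4.43% to 11.5% of all genes were called. When a library was left out, 2 to 12 members were called, where 3.11% to 10.2% of all genes were called. The cause was not tested.

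With library size only, 4 members fell and 2 rose, and 1 elongation or termination factor and 9 ribosomal protein genes were called, against 8.55% of all genes. With upper quartile scaling 2 members rose and 1 elongation or termination factor was called, against 8.44% of all genes. With DESeq2's test 3 genes of the ATF4 pathway were called, against 7.05% of all genes. When 1 library was left out, 393 to 1293 genes (3.11% to 10.2%) were called, and 1 to 11 members fell and 0 to 1 rose. Called there were also 2 to 6 genes of the ATF4 pathway, 0 to 2 elongation and termination factors, 2 to 6 partners, and 0 to 7 ribosomal protein genes. The median of eIF2 ranged from -0.12 to 0.0706 in these fits, and that of eIF2B from -0.305 to -0.176.

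The labels give both groups replicate numbers 1 to 3. Deviations of libraries with the same number correlated at 0.07, 0.16, and 0.03, so the numbers were not taken to pair them, and of the 3 LME-sEV libraries not every one correlated best with its own number. With the replicate number as a block, 16 members were called, of which 3 rose (Eif2ak3, Eif3f, and Eif4ebp2). This fit also called 7 partners and 2 regulators, and 1454 genes in all (11.5%).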
